A study of Mus musculus with 16 samples.

Results

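miR-335 is a microRNA whose hairpin lies inside the gene Mest, and the array used here measures both of its mature arms. The members were chosen by name, mmu-miR-335-5p and mmu-miR-335-3p, and they are 2 of the 1881 mouse miRNAs on the array. miR-335 was picked because the level of its 5p arm differed among the 4 groups, so the group differences of miR-335-5p are given below as a description, without a test.

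Mest (mesoderm specific transcript) is an imprinted gene, transcribed from the paternal copy, and miR-335 is processed from one of its introns. A mature miRNA guides the silencing complex to messenger RNAs that pair with its seed, the stretch next to its 5′ end. In the kidney, miR-335 is known as a miRNA linked to ageing of mesangial cells, where it acts with miR-34a on antioxidant enzymes of the mitochondrion. Host transcript and methylation of Mest were not measured on these arrays.

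Renal cortical tissue came from male mice of 2 inbred lines, the senescence-accelerated resistant line (SAMR1) and the senescence-accelerated prone line (SAMP1), each at 10 and at 50 weeks of age and with no treatment named in the labels. Each of these 4 groups, named by line and age (SAMP1-10wk is the prone line at 10 weeks), held 4 mice, with 1 mouse per 1-colour array. A comparison of strains therefore covers every difference between the lines. All arrays of 10-week-old mice lay on 1 slide and all those of 50-week-old mice on the other, so age and slide cannot be told apart, whereas each comparison of strains at 1 age lies within a slide.

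The mature and hairpin sequences from RefSeq are shown to make the measured parts of the molecule visible. The hairpin of Mir335 spans chr6:30741299-30741396 on the forward strand of GRCm38.p6, and Mest is the only RefSeq gene that spans it. Capitals mark the 2 arms, the 5p arm first.
Mir335 hairpin: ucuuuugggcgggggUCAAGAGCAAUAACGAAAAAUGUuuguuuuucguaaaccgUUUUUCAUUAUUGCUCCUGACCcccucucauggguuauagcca
Capitals in the mature arms mark the seed, bases 2 to 8.
mmu-miR-335-5p: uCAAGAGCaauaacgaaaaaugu
mmu-miR-335-3p: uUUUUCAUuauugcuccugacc
The 5p arm has 23 bases and the 3p arm 22. Among the 1679 mature mouse miRNAs in the RefSeq table, no other one carried the seed of either arm, so neither arm belongs to a seed family in that table.

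Each arm was read by short DNA probes complementary to its 3′ part, printed many times over the array. The probes of miR-335-5p are shown because only one of them gave a signal. The capital marks the base that the shorter probe lacks.
mmu-miR-335-5p 18-base probe: acatttttcgttattgct
mmu-miR-335-5p 19-base probe: acatttttcgttattgctC
The 18-base probe pairs with bases 6 to 23 of the arm, and the 19-base probe with bases 5 to 23. Each had 15 spots per array. miR-335-3p had 4 nested probes of 19 to 22 bases with 7 or 8 spots each, the longest of which pairs with the whole arm.
mmu-miR-335-3p 22-base probe: ggtcaggagcaataatgaaaaA
None of these probes fully matched another mature miRNA among the 1673 other sequences compared, and the longest stretch that a 5p probe shared with one was 9 bases, in miR-719.

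Between 352 and 445 miRNAs were detected per array, and no spot was saturated. The 6 miRNAs fixed as markers of renal epithelium, among them miR-192-5p, miR-194-5p and miR-204-5p, were detected on all 16 arrays. The 90th percentile of the signals, by which each array was scaled, had medians of 17.2 in SAMP1-50wk, 12.0 in SAMP1-10wk, 10.2 in SAMR1-10wk and 9.84 in SAMR1-50wk. By these medians the SAMP1-50wk arrays were divided by the largest numbers, although 1 of them, at 11.7, lay below 3 of the SAMP1-10wk arrays. A miRNA was tested if every array of some group had detected it, and 381 miRNAs were. Across these, the median scaled log2 difference was 0.02 for SAMP1-10wk minus SAMR1-10wk, -0.21 for SAMP1-50wk minus SAMR1-50wk, 0.07 for SAMR1-50wk minus SAMR1-10wk and -0.15 for SAMP1-50wk minus SAMP1-10wk. Without scaling these medians were 0.28, 0.57, -0.02 and 0.27.

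miR-335-5p was highest in the kidneys of young SAMP1 mice. Its scaled level in SAMP1-10wk was 2.01 times that in SAMR1-10wk, and in SAMP1-50wk it lay among the levels of SAMR1-50wk, whereas before scaling the SAMP1-50wk signals lay above those of SAMR1-50wk. The arm was detected on 14 of 16 arrays, namely on 4 of 4 arrays in each SAMP1 group and on 3 of 4 in each SAMR1 group. It was a dim miRNA on this array: a miRNA counts as detected when a probe's total signal exceeds 3 times its error, and most values lay not far above that limit.

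The total gene signal is the intensity that the scanner software sums for a miRNA, before any scaling. In SAMP1-10wk it was 5.98, 6.08, 5.84 and 4.24. In SAMP1-50wk it was 3.56, 4.41, 3.48 and 2.53. In SAMR1-10wk it was 2.70, 2.86 and 2.77 on 3 arrays, and the array of animal 5 was called not detected and is listed at 0.1. The SAMP1-10wk signals lay above every SAMR1-10wk signal, and the highest SAMP1-50wk signal overlapped the lowest of SAMP1-10wk.

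In SAMR1-50wk the total gene signal was 2.26, 2.15 and 1.98 on 3 arrays, and the array of animal 9 was listed at 0.1 as not detected. All 4 lay below the lowest SAMP1-50wk signal before scaling. On both arrays called not detected, the 19-base probe had still been read. Its total signal was 2.22 with an error of 0.761 on the SAMR1-10wk array, a ratio of 2.92, and 1.61 with an error of 0.662 on the SAMR1-50wk array, a ratio of 2.43. For miR-335-5p on these 2 arrays, the listed 0.1 thus stands in place of signals just under the limit.

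After scaling, an array's undetected miRNAs were raised to its lowest detected signal. On this scale, the log2 level of miR-335-5p averaged -1.19 ± 0.19 (SD, n = 4) in young SAMP1 mice and -2.29 ± 0.06 (SD, n = 4) in old ones. In the SAMR1 mice it averaged -2.19 ± 0.55 (SD, n = 4) at 10 weeks and -2.48 ± 0.47 (SD, n = 4) at 50 weeks. The wide spread of the SAMR1 groups came from the 2 arrays without a detection call, whose floors of -3.02 and -3.18 lay below the signals their probes gave. With the 19-base probe's signal in place of the call, an alternative chosen after the data were seen, the SAMR1 levels were -1.98 ± 0.13 (SD, n = 4) at 10 weeks and -2.30 ± 0.10 (SD, n = 4) at 50 weeks, and those of the SAMP1 groups were as before.

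**Figure D1:**
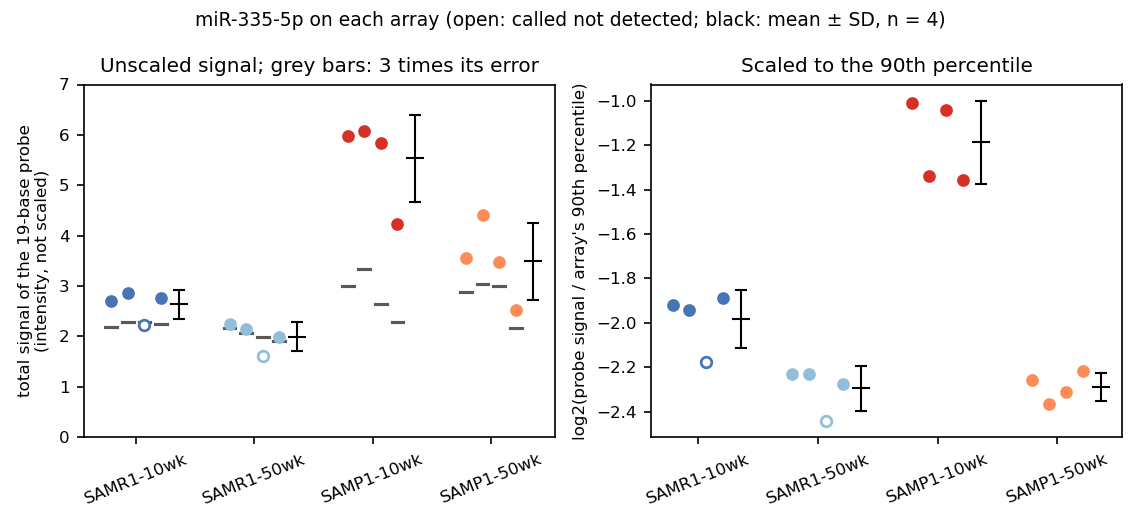
miR-335-5p on each of the 16 arrays by group. The left axis gives the unscaled total signal of the 19-base probe (intensity) with grey bars at 3 times its error, the right axis log2 of that signal over the array's 90th percentile; open points were called not detected, and black marks are mean ± SD (n = 4). SAMP1-10wk lies above SAMR1-10wk on both axes, and the SAMP1-50wk points, above SAMR1-50wk on the left, fall among them on the right.

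The strain difference at 10 weeks, measured within a slide, was 1.01 on the log2 scale (SE 0.29), a 2.01-fold higher level in SAMP1-10wk. With the probe signals it was 0.80 (SE 0.11), or 1.74-fold. Over the spots of both probes it was 0.88 with the processed signal and 0.09 with normexp background correction, which adds an offset of 50. The scaled levels of these groups did not overlap, with -1.36 the lowest in SAMP1-10wk and -1.89 the highest in SAMR1-10wk. The share of all 381 miRNAs without overlap was not computed for any comparison, so nothing is read from a lack of overlap. Of all 381 miRNAs, 1.31% passed the threshold in this comparison, an adjusted p under 0.05 with a fold change over 2 in limma, and since the members were chosen on it nothing is read from that share.

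The age difference within SAMP1 was -1.10 on the log2 scale (SE 0.10), so that SAMP1-50wk had 0.466 times the SAMP1-10wk level. Without scaling it was -0.68 (SE 0.21), or 0.626 times. With normexp background correction, which averages both probes, the difference was -0.21. The value was the same with probe signals, since all 8 arrays had a detection call. The scaled levels did not overlap, with -2.22 the highest in SAMP1-50wk, but the unscaled signals did. As above, nothing is read from that lack of overlap. In this comparison 2.36% of the miRNAs passed the threshold, 1.84% higher and 0.525% lower at 50 weeks.

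Within SAMR1, the age difference was -0.29 (SE 0.36) with the floor and -0.31 (SE 0.08) with probe signals. With the floor it was -0.05 without SAMR1-50wk animal 9 and -0.56 without SAMR1-10wk animal 5. It was 0.17 with the animal numbers, which do not pair the samples, as a replicate block. No direction is drawn from this age difference. The groups overlapped with the floor, and with the probe signals they lay 0.05 apart on the log2 scale. For comparison, 1.31% of the miRNAs passed the threshold. The age differences of the 2 strains differed by -0.82 (SE 0.38) with the floor and by -0.79 (SE 0.13) with probe signals. Without scaling, this was -0.30 (SE 0.46) with the floor and -0.27 (SE 0.25) with probe signals, and with normexp it was -0.19.

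At 50 weeks the strain difference was 0.19 (SE 0.24) with the floor and 0.01 (SE 0.06) with probe signals, and the scaled levels overlapped. Without scaling, the probe signal was higher in SAMP1-50wk by 0.79 (SE 0.20), or 1.73-fold, and the groups did not overlap. Because scaling decides this comparison, no direction is drawn from it. In this comparison 5.77% of the miRNAs passed the threshold. Set against the median of the 381 miRNAs, which cancels any scaling factor by construction, the probe signal differed by 0.22 between strains at 50 weeks, by 0.78 between strains at 10 weeks, by -0.95 between ages in SAMP1 and by -0.39 between ages in SAMR1.

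In order of scaled level, SAMP1-10wk came first and stood apart from the rest beyond its spread. SAMR1-10wk came next with either measure. SAMP1-50wk and SAMR1-50wk followed, and these neighbours did not differ beyond their spread. By the floored values, SAMR1-10wk and SAMP1-50wk did not differ beyond their spread either.

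**Figure D2:**
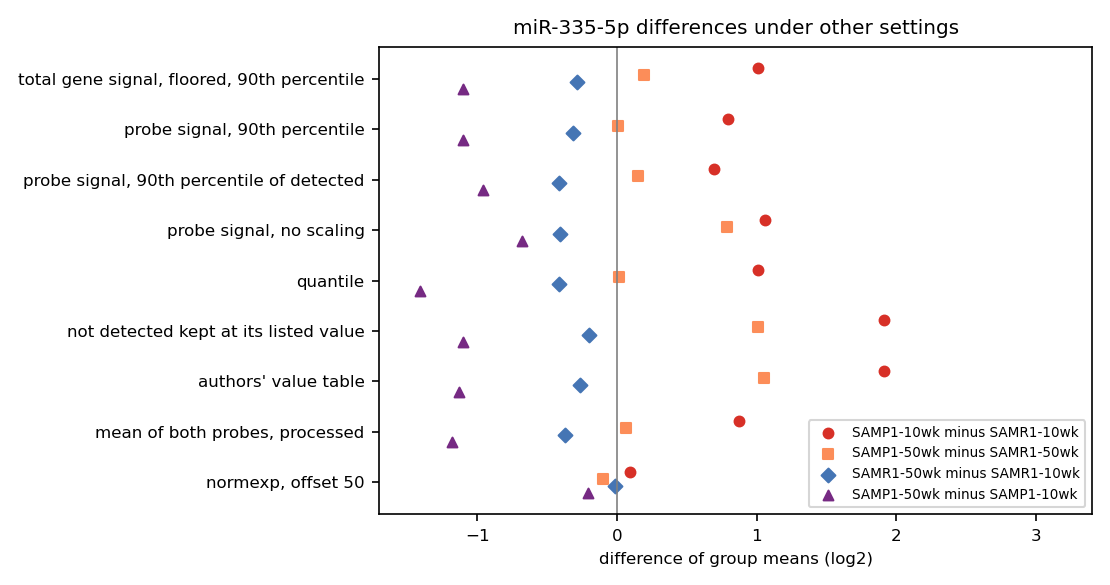
Difference of group means of miR-335-5p (log2, horizontal axis) for 4 comparisons under 9 settings (vertical axis), 1 point per comparison. The 10-week strain difference runs from 0.09 with normexp background correction to 1.91 where undetected arrays keep their listed value, the 50-week strain difference from -0.10 to 1.05, and the SAMP1 age difference from -1.41 to -0.21.

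The spots behind these totals, which are not scaled, were brightest in SAMP1-10wk as well. On the SAMP1-10wk arrays, the mean of the 15 spots of the 19-base probe was 28.2, 22.6, 27.5 and 20.0 (processed, background-subtracted intensity), with 15, 15, 15 and 13 spots well above background. On the SAMR1-10wk arrays it was 12.7, 13.5, 10.5 and 13.1, with at most 3 of 15 spots well above background. On the SAMP1-50wk arrays it was 13.3, 16.2, 12.9 and 11.9, with 1, 6, 1 and 1 such spots.

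On the SAMR1-50wk arrays the spot means were 10.6, 10.1, 7.59 and 9.34, and none of their spots was well above background. By that call, made per spot and not per miRNA, the SAMR1-50wk level is not well above background, although 3 of its 4 arrays had a detection call for the miRNA. All 15 spots were called positive and significant on every one of the 16 arrays, the SAMR1-50wk arrays included. The coefficient of variation over the 15 spots ran from 6.63% to 37.5%, with a median of 15.0% in SAMP1-10wk and between 24.3% and 26.2% in the other groups.

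The 18-base probe, 1 base shorter, gave next to nothing. Its spot means ran from -1.13 to 4.12, and none of its 240 spots over the 16 arrays was well above background. Its group means ran from 0.130 to 2.49, and these values are below detection and have no order. Every reading of miR-335-5p above the limit therefore rested on a single probe sequence.

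**Figure D3:**
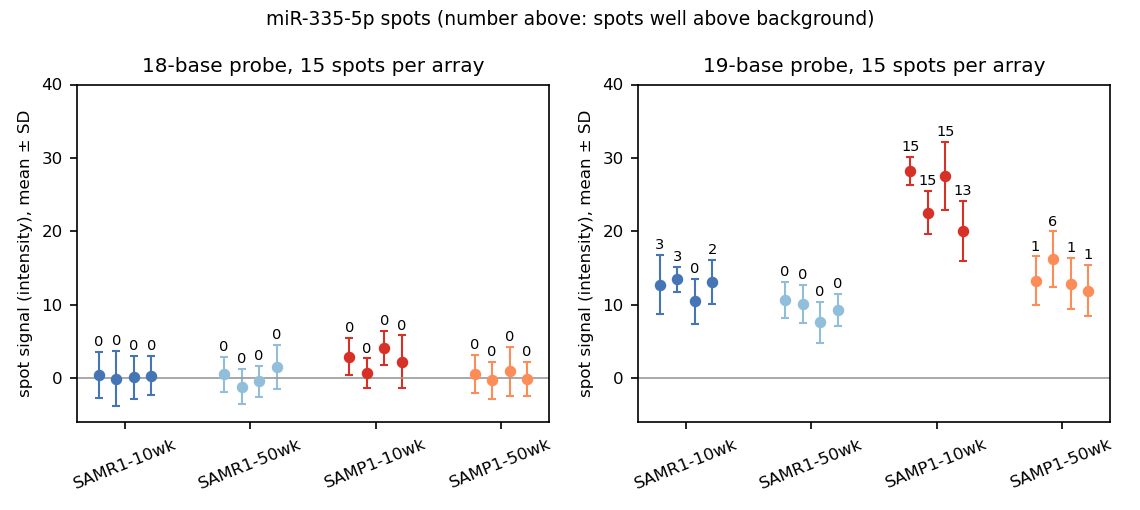
Processed signal (intensity) of the 2 probes of miR-335-5p on each array, as the mean ± SD of 15 spots, by group; the number above a point counts the spots well above background. The 18-base probe stays near 0, and the 19-base probe reaches 20.0 to 28.2 in SAMP1-10wk against 7.59 to 16.2 in the other groups.

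miR-335-3p, the opposite arm of the hairpin, was detected on 0 of 16 arrays. It had no measured level in any group, and neither a comparison of groups nor a relation between the arms was computed. The total signal of its probes was 0.0601 to 1.60 times its error for the 19-base probe, 0.253 to 1.48 times for the 20-base probe, 0.451 to 1.56 times for the 21-base probe and 0.480 to 1.50 times for the 22-base probe. All of these ratios lay below the limit of 3.

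Of all spots of miR-335-3p, 1 of 112 spots of the 21-base probe was well above background, on a SAMR1-50wk array, and none of the other probes' spots was. The mean spot signal of the 22-base probe was 4.44 ± 0.66 (SD, n = 4) in SAMP1-10wk, 2.92 ± 1.12 in SAMP1-50wk, 3.63 ± 0.85 in SAMR1-50wk and 2.75 ± 0.78 in SAMR1-10wk. These values are below detection and have no order.

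**Figure D4:**
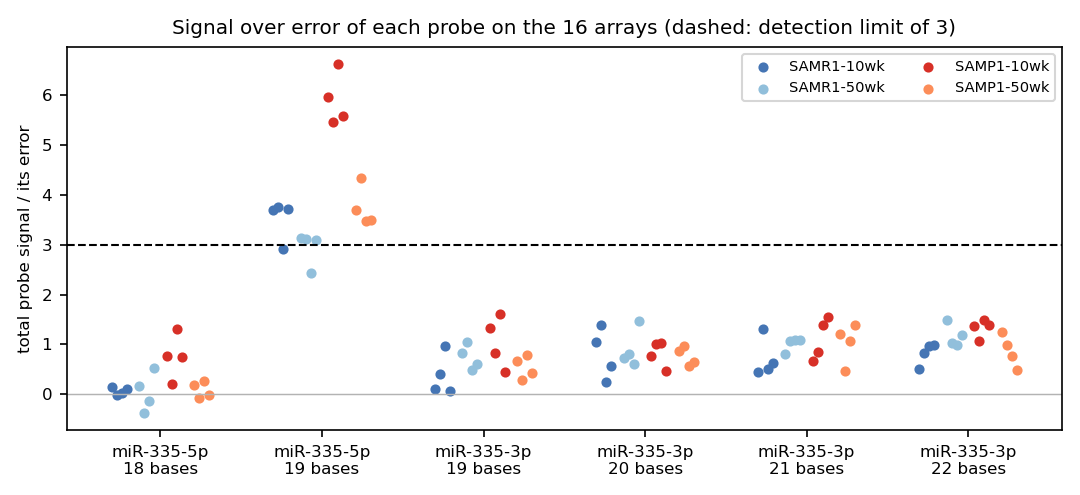
Total probe signal divided by its error (vertical axis) for the 2 probes of miR-335-5p and the 4 of miR-335-3p (horizontal axis), 1 point per array and coloured by group; the dashed line is the detection limit of 3. Only the 19-base probe of miR-335-5p passes the limit, on 14 of 16 arrays.

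The miRNAs nearest to Mir335 on the chromosome were examined next. Within 1 Mb of the hairpin in GRCm38.p6, RefSeq places miR-29a and miR-29b-1, which repress collagen genes, and the sensory organ cluster of miR-96, miR-182 and miR-183, all on the opposite strand and 321 to 575 kb away. Of their 10 mature forms, 5 were tested, and 0 of 5 passed the threshold by limma in each of the 4 comparisons, in which 1.31% to 5.77% of all miRNAs passed, so that nothing is read from that count. At an unadjusted p under 0.05, without the fold limit, 5 of the 5 differed between ages in SAMR1, 2 between ages in SAMP1, 1 between strains at 50 weeks and 0 between strains at 10 weeks. Over all 381 miRNAs, the share at that cut was 21.3% between ages in SAMR1, 44.1% between ages in SAMP1, 55.9% between strains at 50 weeks and 19.9% between strains at 10 weeks. The median log2 difference of the 5 was 0.09 between strains at 10 weeks, -0.14 between strains at 50 weeks, 0.53 between ages in SAMR1 and 0.37 between ages in SAMP1, beside 0.02, -0.21, 0.07 and -0.15 over all miRNAs tested.

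Among these neighbours, miR-29a-3p was higher at 50 weeks by 0.63 in SAMR1 (SE 0.09, adjusted p = 0.000355 in limma) and by 0.46 in SAMP1 (SE 0.09, adjusted p = 0.00264), both less than a fold of 2. miR-29b-3p, which a second locus also encodes, was higher by 0.64 in SAMR1 (SE 0.08, adjusted p = 0.000347 in limma) and by 0.41 in SAMP1 (SE 0.08, adjusted p = 0.00351). miR-96-5p, detected on all 16 arrays, did not pass between strains at 10 weeks, where its difference was 0.19 (SE 0.09, adjusted p = 0.244 in limma). miR-182-5p was detected on 1 array and miR-183-5p on 4.

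miRNAs of other imprinted loci were mostly undetected in these kidneys. Of 8 arms from Igf2 (miR-483), H19 (miR-675) and the Gnas locus (miR-296 and miR-298), 3 were detected on any array and tested. miR-483-5p and miR-298-5p were dim, and each was tested only because every array of its highest group had detected it, so their differences are given without a test. miR-483-5p had a scaled log2 level of -1.84 ± 0.22 (SD, n = 4) in SAMP1-50wk, where 4 of 4 arrays detected it, and of -3.31 ± 0.16 in SAMP1-10wk, where 3 of 4 did. miR-298-5p had a level of -2.55 ± 0.45 (SD, n = 4) in SAMR1-50wk, with detection on 4 of 4 arrays, and of -3.61 ± 0.06 in SAMP1-50wk, with detection on 3 of 4. miR-296-5p, detected on all 16 arrays, did not pass the threshold in any comparison.

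Of 91 miRNAs of the imprinted Dlk1-Dio3 locus on the array, 5 were detected on any array and 3 were tested. In limma 0 of these 3 passed the threshold in any of the 4 comparisons. Over all miRNAs 1.31% to 5.77% passed, so nothing is read from that count. At an unadjusted p under 0.05 all 3 differed between strains at 50 weeks, 1 between ages in SAMP1 and 0 in the other comparisons, beside 55.9% of all miRNAs between strains at 50 weeks, 44.1% between ages in SAMP1, 19.9% between strains at 10 weeks and 21.3% between ages in SAMR1. Their median log2 difference was -0.29 between strains at 10 weeks, -0.45 between strains at 50 weeks, -0.06 between ages in SAMR1 and -0.21 between ages in SAMP1, beside 0.02, -0.21, 0.07 and -0.15 over all miRNAs tested. Among them, miR-487b-3p differed between ages in SAMP1 by -0.60 (SE 0.15, adjusted p = 0.0106 in limma), short of the fold limit. In the families of miR-297, miR-466, miR-467 and miR-669, which are encoded in the imprinted Sfmbt2 gene and in copies elsewhere, 11 of 61 members were tested. The level of miR-669n was highest in SAMP1-50wk, the group with detection on 4 of 4 arrays, against at most 1 of 4 elsewhere. It was tested through that group alone, so no test of it is given. None of the other 10 passed the threshold, beside 1.31% to 5.77% of all miRNAs in the 4 comparisons, so nothing is read from that count.

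Of 13 miRNAs known from ageing kidney, 12 were tested, and 1 passed the threshold in limma in the comparison of ages in SAMR1, beside 0 in the other 3 comparisons. Over all miRNAs 1.31% passed between ages in SAMR1. At an unadjusted p under 0.05, 5 of the 12 differed between ages in SAMR1, 8 between ages in SAMP1, and 2 and 3 between strains at 10 and 50 weeks, beside the shares of 21.3%, 44.1%, 19.9% and 55.9% over all miRNAs. The 1 that passed was miR-34a-5p, a p53 target that is described with miR-335 in ageing mesangial cells. Its scaled log2 level was 2.51 ± 0.19 (SD, n = 4) at 10 weeks and 3.59 ± 0.16 at 50 weeks in SAMR1, against 3.33 ± 0.14 and 3.99 ± 0.03 in SAMP1. It was higher by 1.08 at 50 weeks than at 10 weeks in SAMR1 (SE 0.10, adjusted p = 1.03e-05 in limma). Here, as in SAMP1, age and slide cannot be told apart.

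At 10 weeks miR-34a-5p was higher in SAMP1 by 0.82 (SE 0.10, adjusted p = 0.000284 in limma), and with age in SAMP1 by 0.66 (SE 0.10, adjusted p = 0.000819), both below the fold limit. miR-34a-5p and miR-335-5p thus both had their lower 10-week level in SAMR1. With age in SAMP1 the differences had opposite signs, 0.66 for miR-34a-5p and -1.10 for miR-335-5p.

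By Pearson correlation over the 16 arrays, the detected miRNAs most like miR-335-5p were miR-455-5p (r = 0.925), miR-100-5p (r = 0.836), miR-450a-5p (r = 0.817), miR-181c-5p (r = 0.803) and miR-143-3p (r = 0.798), out of 322 compared. These correlations are a description. The 16 points share their arrays and the scaling factor of each array, and they include the differences between the 4 groups by which miR-335-5p was chosen. Of the 5, 4 are shown with the seed in capitals, to be read against the arms above.
mmu-miR-455-5p: uAUGUGCCuuuggacuacaucg
mmu-miR-100-5p: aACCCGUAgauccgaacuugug
mmu-miR-450a-5p: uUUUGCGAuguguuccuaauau
mmu-miR-181c-5p: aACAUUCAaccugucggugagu
None of these 4 shared the seed of miR-335-5p or more than 4 bases in a row with it. They come from chromosomes 4, 9, X and 8 in GRCm38.p6, whereas Mir335 lies on chromosome 6.

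miR-455-5p had its lowest SAMR1-10wk value, -1.07, on the array of animal 5 and its lowest SAMR1-50wk value, -1.52, on the array of animal 9, the same 2 arrays on which miR-335-5p was not called. Its group means were 0.02 ± 0.14 (SD, n = 4) in SAMP1-10wk, -0.70 ± 0.37 in SAMP1-50wk, -0.53 ± 0.38 in SAMR1-10wk and -0.83 ± 0.46 in SAMR1-50wk. With miR-335-5p measured by its 19-base probe instead, miR-455-5p left the first 5, which were then miR-450a-5p (r = 0.951), miR-100-5p (r = 0.900), miR-145a-5p (r = 0.864), miR-9-5p (r = 0.856) and miR-218-5p (r = 0.839).

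For the 5 miRNAs first named, miR-455-5p to miR-143-3p, the lowest SAMP1-10wk value lay above every value of the other groups, and since likeness to miR-335-5p chose them nothing is read from that. The scaled log2 level of miR-450a-5p, from an X-chromosome cluster that also encodes miR-503, was 0.01 ± 0.13 (SD, n = 4) in SAMP1-10wk, -0.31 ± 0.07 in SAMR1-10wk, -0.58 ± 0.09 in SAMR1-50wk and -0.60 ± 0.02 in SAMP1-50wk. For miR-100-5p, the SAMP1-10wk values of 1.87 to 2.03 lay above the SAMR1-10wk values of 1.60 to 1.78. miR-143-3p, known from smooth muscle and mesangial cells, ranged from 3.78 to 4.06 in SAMP1-10wk and from 3.53 to 3.65 in SAMR1-10wk. Of the 6 tested markers of fibroblasts and smooth muscle, miR-143-3p included, 4 had a positive strain difference at 10 weeks and 2 a negative one.

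**Figure D5:**
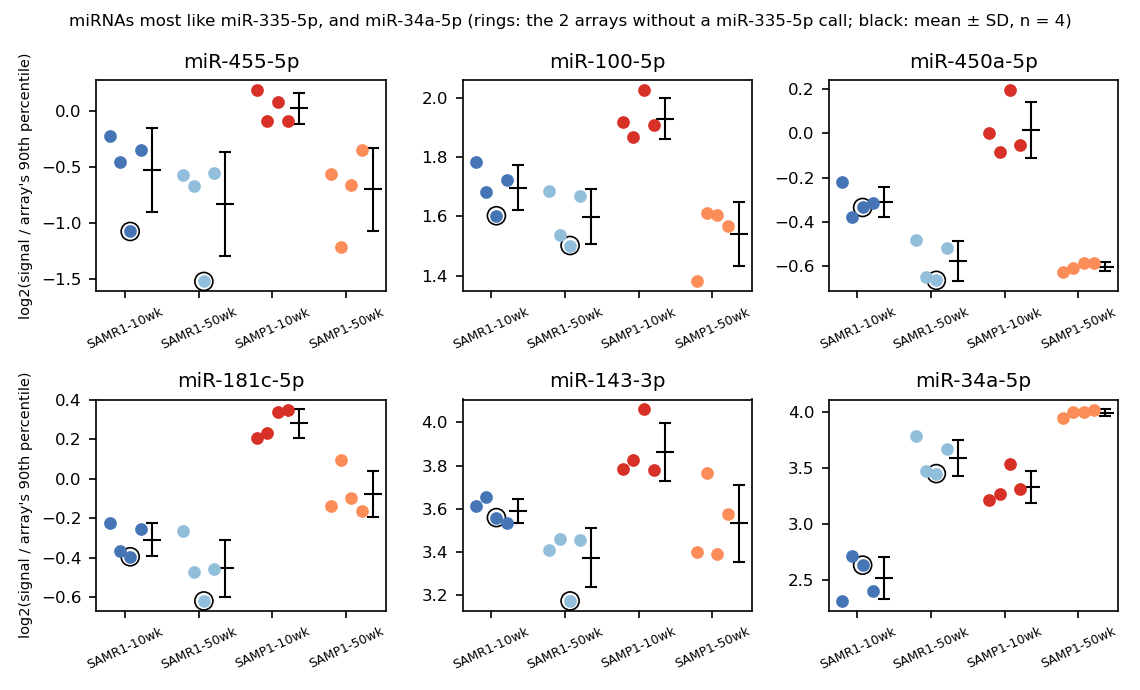
Scaled level (log2 of signal over the array's 90th percentile, vertical axes differ) of the 5 miRNAs most like miR-335-5p and of miR-34a-5p, 1 point per array by group, with mean ± SD (n = 4) in black. Rings mark the 2 arrays without a miR-335-5p call, on which miR-455-5p is lowest in its group, and miR-34a-5p shows another order, with SAMP1-50wk highest at 3.99.

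Markers of blood cells moved with the groups, and their part in the miR-335-5p values was not tested. In bulk tissue, fewer cells of a type and less RNA per cell cannot be told apart. Of 8 leukocyte markers on the array, 6 were detected on all 16 arrays, and at 50 weeks 4 of these 6 were higher in SAMP1, where 4.46% of all miRNAs passed in that direction. The brightest, miR-142a-3p, was higher there by 1.55 (SE 0.17, adjusted p = 4.67e-05 in limma). The other 3 were miR-142a-5p, higher by 1.69, miR-155-5p, by 1.43, and miR-150-5p, by 1.05. Between ages in SAMP1, where 1.84% of all miRNAs passed as higher at 50 weeks, 2 of the 6 did, miR-142a-3p by 1.38 (SE 0.17, adjusted p = 0.000213 in limma) and miR-142a-5p by 1.48 (SE 0.19, adjusted p = 0.000251). Between strains at 10 weeks, and between ages in SAMR1, 0 of the 6 passed the threshold in limma, beside 1.31% of all miRNAs in each. The summed scaled signal of the leukocyte markers was 29.8 to 46.7 in SAMP1-50wk, 15.7 to 20.6 in SAMP1-10wk, 15.6 to 18.3 in SAMR1-50wk and 14.7 to 18.8 in SAMR1-10wk.

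Of the other 2 leukocyte markers, miR-342-3p was detected on no SAMR1 array and on all SAMP1 arrays, and since it was tested through the SAMP1 groups alone no test of it is given. miR-342-5p was detected on none. The erythrocyte markers varied widely within groups, and their summed scaled signal was 5.0 to 65.5 in SAMP1-10wk, 26.8 to 163.6 in SAMP1-50wk, 11.9 to 151.7 in SAMR1-10wk and 3.2 to 9.0 in SAMR1-50wk. miR-451a, the erythrocyte marker detected on all 16 arrays, was higher in SAMP1 at 50 weeks by 4.02 (SE 0.91, adjusted p = 0.00344 in limma). In SAMR1 it was lower at 50 weeks than at 10 weeks, with a difference of -3.22 (SE 0.91, adjusted p = 0.0366 in limma), where 0.525% of all miRNAs passed in that direction. For miR-144-3p, every SAMP1-50wk and SAMR1-10wk array had a detection call, as did 2 of the SAMP1-10wk arrays and 0 of the SAMR1-50wk arrays, and since it was tested through its high groups no test of it is given.

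Of the 6 tested markers of renal epithelium and the 6 of fibroblasts and smooth muscle, 0 passed the threshold by limma in any of the 4 comparisons, in which 1.31% to 5.77% of all miRNAs passed. Below the fold limit, at 10 weeks the SAMP1 level of miR-194-5p exceeded that of SAMR1 by 0.46 (SE 0.07, adjusted p = 0.000617 in limma) and miR-192-5p by 0.48 (SE 0.09, adjusted p = 0.00410). Between strains at 10 weeks, 3 of the epithelial markers had an unadjusted p under 0.05, all of them higher in SAMP1, beside 19.9% of all miRNAs. Of the fibroblast and smooth muscle markers 4 did, and these went both ways, with differences of 0.27 for miR-143-3p and 0.24 for miR-199b-5p against -0.23 for miR-199a-5p and -0.29 for miR-214-3p. Between ages in SAMP1, 4 of the epithelial markers had an unadjusted p under 0.05, all lower at 50 weeks, beside 44.1% of all miRNAs. The median log2 difference of the 6 epithelial markers was -0.18, beside -0.15 over all miRNAs tested, a median that was 0.27 without scaling. Nothing is read from that direction. At the same cut, 5 of the fibroblast and smooth muscle markers differed, again in both directions. Among these 5, miR-145a-5p differed by -0.42 (SE 0.07, adjusted p = 0.00115 in limma) and miR-214-3p by 0.41 (SE 0.08, adjusted p = 0.00264).

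The summed scaled signal of the fibroblast and smooth muscle markers was 36.7 to 42.3 in SAMP1-10wk, 34.1 to 38.0 in SAMR1-10wk, 36.2 to 46.2 in SAMP1-50wk and 36.2 to 43.3 in SAMR1-50wk, so that the groups overlapped. Of its 9 members, 3 were detected on no array, miR-143-5p, miR-145a-3p and miR-214-5p. The summed epithelial signal was 336 to 369 in SAMP1-10wk, 285 to 304 in SAMR1-10wk, 295 to 327 in SAMP1-50wk and 308 to 356 in SAMR1-50wk. The epithelial sum in SAMP1-10wk thus lay above those of SAMR1-10wk and SAMP1-50wk but overlapped that of SAMR1-50wk. The scaled level of miR-335-5p in SAMP1-10wk overlapped no other group. The part of the epithelial markers in the miR-335-5p values was not tested.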

How the data were processed

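Total RNA of renal cortex from 16 mice was measured, 1 mouse each, on Agilent mouse miRNA arrays of 56430 spots read in the Cy3 colour alone. The authors deposited the output of Agilent Feature Extraction 12.0.3.1, per the labels, in which intensity values are background-subtracted per spot and summed to a total gene signal with a detection call. They also deposited a table of log2 values, scaled to a percentile per array and centred on SAMR1-10wk, which served as an alternative.

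Here the total gene signal was divided by the array's 90th percentile over 1881 miRNAs, floored at the array's lowest detected signal and log2-transformed. The 381 miRNAs that every array of some group had detected were fitted with limma 3.58.1 (R 4.3.3) in 1 model of 4 group means, with Benjamini-Hochberg adjustment over all 381. The threshold was a fold change over 2 with an adjusted p under 0.05. Tables and plots were made with Python 3.11.15. Spots of 1 probe are technical repeats, and the array is the replicate. The number of arrays limits the precision.

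Sequences came from RefSeq (GRCm38.p6), in which 1608 array names, both arms included, were matched by name. The files list the probes of miR-335 as unmapped and their header names another build, so positions are RefSeq's own. Members, lists and tests were chosen with earlier results of these data known. Named were both arms, list members that passed the threshold or are the brightest markers, and the 5 miRNAs with the highest correlation. Other members were named after their values were seen.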

Additional observations from a re-analysis of the deposited data

Results flagged for a closer look

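In groups of 4, a value was examined for its gap to the nearest of the others as a share of the group's whole range. Of 36 groups of values examined, 8 had a gap above the 95% critical value, and chance alone exceeds it in about 1 of 20. The total gene signal of miR-335-5p had such gaps in SAMR1-10wk (0.943) and in SAMR1-50wk (0.871), where the arrays of animals 5 and 9 were called not detected and listed at 0.1. On the scaled log2 scale with the floor, the gaps of these 2 arrays were 0.951 and 0.950. In SAMP1-10wk the array of animal 6, at 4.24, was the low one, with a gap of 0.870 in the total gene signal and 0.870 in the 19-base probe signal, which are the same values there. After scaling, no SAMP1 group had such a gap for miR-335-5p. miR-455-5p had a gap of 0.886 in SAMR1-50wk, on the array of animal 9, and miR-143-3p one of 0.845 in SAMP1-10wk, on the array of animal 5.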

How the results depend on the processing

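For miR-335-5p, the higher 10-week level in SAMP1 and the lower 50-week level within SAMP1 kept their signs under every setting run, and the strain difference at 50 weeks and the age difference in SAMR1 did not. With signals as deposited, where undetected arrays count as 0.1, the strain differences were 1.91 at 10 weeks and 1.01 at 50 weeks, and those of the authors' log2 values were 1.91 and 1.05. Without scaling, the 50-week strain difference was 0.97, the SAMP1 age difference -0.68 and the difference between the strains' age differences -0.30. With the 19-base probe and no scaling these were 0.79, -0.68 and -0.27. Normexp background correction with an offset of 50, over the spots of both probes, gave 0.093 for strain at 10 weeks, -0.21 for age in SAMP1 and -0.19 for the difference of age differences. That offset exceeds the highest mean spot signal of miR-335-5p, 28.2. The processed signal, also over the spots of both probes, gave 0.88, -1.18 and -0.81 in the same order. The cause of the smaller normexp values was not tested.

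The animal numbers do not pair the samples: of 7 same-numbered pairs, 2 had correlations above 0.1, from -0.43 to 0.21 in all. As a replicate block, they turned the 50-week strain difference to -0.29 and the SAMR1 age difference to 0.17, and moved the difference of age differences to -1.49. Leaving out each array in turn gave 0.73 to 1.11 for strain at 10 weeks, -1.16 to -1.04 for age in SAMP1, -0.04 to 0.27 for strain at 50 weeks, -0.56 to -0.05 for age in SAMR1 and -1.05 to -0.54 for the difference of age differences. The 50-week strain difference was -0.04 without SAMR1-50wk animal 9, and the SAMR1 age difference was -0.05 without it and -0.56 without SAMR1-10wk animal 5.

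The counts of miRNAs past the threshold were 5 for strain at 10 weeks, 22 for strain at 50 weeks, 5 for age in SAMR1 and 9 for age in SAMP1. In that order they were 1, 6, 2 and 3 among miRNAs detected on all 16 arrays, 17, 180, 38 and 108 without the fold limit, and 1, 11, 1 and 4 with the methods' analysis of variance, Tukey's test and Benjamini-Hochberg adjustment, which unadjusted gave 10 for strain at 10 weeks and 14 at 50 weeks. With the replicate block the limma counts were 1, 3, 0 and 4, and with normexp 0, 3, 0 and 1. Without scaling they were 8 for strain at 10 weeks, 69 for strain at 50 weeks and 0 for age in SAMR1. At an unadjusted p under 0.05 with the fold limit kept, the counts of 0 in limma were 7 with the block, 0 for strain and 1 for age with normexp, and 7 without scaling; with the fold limit dropped too they were 29, 77, 50 and 16. The processed signal gave 2 and 7 for strain and 3 for age in SAMP1. Without the filter 35 passed for strain at 50 weeks, 2 for age in SAMR1 and 22 for age in SAMP1, and quantile normalization gave 3 for age in SAMR1.

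Leaving out each array in turn gave counts of 3 to 6, 15 to 27, 2 to 6 and 5 to 20 in the same order. The count for strain at 10 weeks was 3 without SAMP1-10wk animal 4 or SAMR1-10wk animal 5, and that for age in SAMP1 was 5 without SAMP1-50wk animal 2 and 20 without animal 11. The count for age in SAMR1 was 2 or 3 without SAMR1-10wk animals 1, 4 or 7 or SAMR1-50wk animals 2, 9 or 12. Scaled to miRNAs detected on all arrays, miR-322-5p took the place of miR-143-3p among the most alike, and after quantile normalization miR-9-5p and miR-455-3p replaced miR-181c-5p and miR-143-3p. The alternatives for miR-335-3p were not run, since it was detected on no array. Dim signal limits the values of miR-335-5p in SAMR1.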
